A study of Mus musculus with 3 samples.

Results

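The stefin A genes of the mouse lie side by side on chromosome 16 and encode small proteins of the cystatin superfamily. The members described here were Stfa1, Stfa2, Stfa2l1, Stfa3, BC100530 and 2010005H15Rik, which are 6 of the 54752 gene symbols counted in each library. They were chosen by their measured UMI levels in these same libraries, with earlier results known, so their levels are given as a description and without a test. Over the 10548 cells kept, they held 447401 UMIs (unique molecular identifiers, each standing for 1 captured RNA molecule), and 4808 cells held at least 1 of them.

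Stefins are cytosolic inhibitors of papain-like cysteine proteases. They wedge into the active site of cathepsins such as cathepsin B, H, L and S and are thought to protect the cell when these enzymes leak from lysosomes. In rodents the stefin A gene has multiplied into a cluster of close copies, and its transcripts are known from neutrophils, which are short-lived phagocytes made in the bone marrow, and from inflammatory monocytes. Stfa1, Stfa2, Stfa2l1 and Stfa3 carry the stefin name, and BC100530 (Cstdc5 in RefSeq) and 2010005H15Rik are annotated copies of the same cluster, named here as the files name them.

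The cells came from hearts of C57BL/6 mice operated on at postnatal day 10 (P10) and killed 3 days later, at P13. P10-sham_vehicle mice had sham surgery and vehicle. P10-MI_vehicle mice had vehicle and a myocardial infarction (MI), made by tying off the left anterior descending artery of the heart. P10-MI_SB225002 mice had the same infarction and daily injections of SB225002, an antagonist of CXCR2, the chemokine receptor that draws neutrophils into inflamed tissue. From the infarct zone (IZ) and border zone (BZ) of several pooled hearts, living CD45+F4/80+ cells were sorted, a gate meant for macrophages and monocytes, and made into 1 library per condition. With 1 library a condition there is no replicate, every comparison below is between 2 libraries, and each interval is a 95% interval of counting error only.

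The sham library held 3390 barcodes with 29323567 UMIs, the vehicle MI library 4511 barcodes with 32498608 UMIs, and the SB225002 library 5783 barcodes with 34235864 UMIs. After the study's filter 2351, 3453 and 4744 cells remained, in that order, and the median cell held 8521, 6400 and 5654 UMIs. The family of 6 held 77937, 205304 and 164160 UMIs in them, and 33.5%, 43.0% and 53.5% of the cells held at least 1. The upper limits of that filter (30000 UMIs and 5000 genes) removed 178 sham, 141 vehicle and 50 SB225002 barcodes, among which 22, 25 and 7 had at least 5 of 9 neutrophil markers. Those barcodes held 44.5%, 25.8% and 1.52% of all UMIs of the family in the sham, vehicle and SB225002 libraries. Without any filter the family level over all barcodes was 4805, 8597 and 5089 CPM (UMIs per 1000000 UMIs), against 3599, 7860 and 5228 CPM in the cells kept, so the vehicle library was highest either way. The same barcode names occurred in several libraries, 1260 of them in sham and vehicle, 1306 in sham and SB225002 and 1844 in vehicle and SB225002. Same-named cells were no more alike than cells with shuffled names, with a median correlation of 0.505 against 0.500, 0.482 against 0.485 and 0.462 against 0.458.

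The members lie within 298.6 kb of chromosome 16 (chr16:36156811-36455392, GRCm38, GENCODE vM21). In genome order they are Stfa2l1 (chr16:36156811-36161953, plus strand), 2010005H15Rik (chr16:36221468-36257444, plus), Stfa1 (chr16:36276951-36285373, plus), BC100530 (chr16:36359382-36367748, minus), Stfa2 (chr16:36403992-36408457, minus) and Stfa3 (chr16:36450537-36455392, minus). Each is a protein-coding gene whose longest coding transcript has 412 to 639 bases. Further copies between and beside them are Csta1, Gm5483, Gm5416, BC117090 and the pseudogene Gm4758.

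All 6 members have a promoter entry in RefSeq (GRCm38.p6), and the 250 bases before each gene's start were compared. Of the 32851 promoters in that table, 5 hold the run ATTATTGGCACAGAG (0.0152%), and these were the promoters of Stfa1, Stfa2, Stfa2l1, Stfa3 and BC100530. The run was picked because those promoters share it, searched on the strand of each gene. A second shared run, ACTCAGCATTTCC, follows 85 or 86 bases after it and is found in 9 promoters (0.0274%), among them those of Gm5416 and Csta1. Neither run was found in the window of 2010005H15Rik. The stretches that begin with the run are shown, 5′ to 3′ on the strand of each gene and with the run in capitals, because they show how alike the copies are in DNA near their start. Distances are from the RefSeq starts, which for Stfa1, Stfa2 and BC100530 lie inside the GENCODE genes given above, as does the second run of Stfa1 and BC100530.
Stfa1 (chr16:36276906-36276949, plus): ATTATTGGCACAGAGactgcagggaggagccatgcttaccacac
Stfa2 (chr16:36408564-36408607, minus): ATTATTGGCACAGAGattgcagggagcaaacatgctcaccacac
Stfa2l1 (chr16:36156564-36156607, plus): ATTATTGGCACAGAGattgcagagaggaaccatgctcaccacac
Stfa3 (chr16:36455594-36455637, minus): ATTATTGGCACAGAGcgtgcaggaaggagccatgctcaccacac
BC100530 (chr16:36367749-36367792, minus): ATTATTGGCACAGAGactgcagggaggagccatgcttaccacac
Stfa1 and BC100530 were identical over these 44 bases, and the other pairs differed at 3 to 6 of them. A run of bases is a description of sequence and names no factor.

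The transcripts are alike enough that reads may have been shared between some members. Of all windows of 50 bases in Stfa1 transcripts, 19.4% occurred unchanged in BC100530, and 17.5% of the BC100530 windows occurred in Stfa1. Stfa2 shared 14.7% of its windows with Stfa2l1, and Stfa2l1 16.8% with Stfa2. 2010005H15Rik shared 20.4% of its windows with Gm5483, a copy outside the members. Stfa3 shared 0 of its windows with any of the other 10 genes, so its counts were the least open to such sharing.

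Cell classes were set by counting marker genes with at least 1 UMI, and no stefin gene was a marker. Neutrophils needed at least 5 of 9 markers (Ly6g, Cxcr2, Retnlg, Ngp, Ltf, Camp, Mmp8, Mmp9 and Cd177), and 20 sham, 53 vehicle and 101 SB225002 cells passed that gate alone. All 9 markers were detected in each library with a summed level of 32346, 40196 and 45220 CPM, while the 6 markers of C1q-positive macrophages summed to 126, 130 and 187 CPM, levels that the gates themselves set. Another 36, 92 and 131 cells passed both the neutrophil and the C1q gates and were kept out of either class, since doublets and cells with free RNA were not told apart. Ly6c-high monocytes numbered 9, 171 and 254, cells passing both the Ly6c-high and the C1q gates (called monocyte-macrophages here) 30, 142 and 312, and C1q-positive macrophages 1993, 2259 and 2773. The median monocyte-macrophage held 13370, 11398.5 and 11062.5 UMIs, against 17339, 7152 and 6718 in Ly6c-high monocytes and 8663, 6281 and 5684 in C1q-positive macrophages. In vehicle their C1q markers summed to 5697 CPM against 12678 CPM in C1q-positive macrophages. Their Ly6c-high markers summed to 2694 CPM against 5229 CPM in Ly6c-high monocytes. Whether some were doublets was not tested. Neutrophils are not what the F4/80 gate was meant to take, and their number after such a sort is not their number in the heart.

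Neutrophils carried the family at the highest level of any class in each library. The summed level was 141664 CPM [140155 to 143185] in the 20 sham cells, 128454 CPM [127559 to 129353] in the 53 vehicle cells and 101674 CPM [100847 to 102507] in the 101 SB225002 cells. These 6 genes thus took 14.2%, 12.8% and 10.2% of all neutrophil UMIs. BC100530 was counted at 59154, 54993 and 40928 CPM and Stfa1 at 27472, 25327 and 19389 CPM in the sham, vehicle and SB225002 libraries. Stfa2 was counted at 22334, 18515 and 16454 CPM, and Stfa3 at 16215, 14971 and 12516 CPM. Stfa2l1 stood at 11762, 10344 and 8491 CPM, and 2010005H15Rik at 4727, 4303 and 3896 CPM. In these sums every member was highest in sham and lowest in SB225002, an order that did not hold for every member within the granule stages below. The copy Gm5483 was as abundant as the members, at 24983, 26314 and 19947 CPM, whereas Gm5416 stood at 345, 158 and 201 CPM, BC117090 at 96.7, 132 and 111 CPM, and Csta1 and Gm4758 at 0 UMIs in all 3 libraries.

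**Figure D1:**
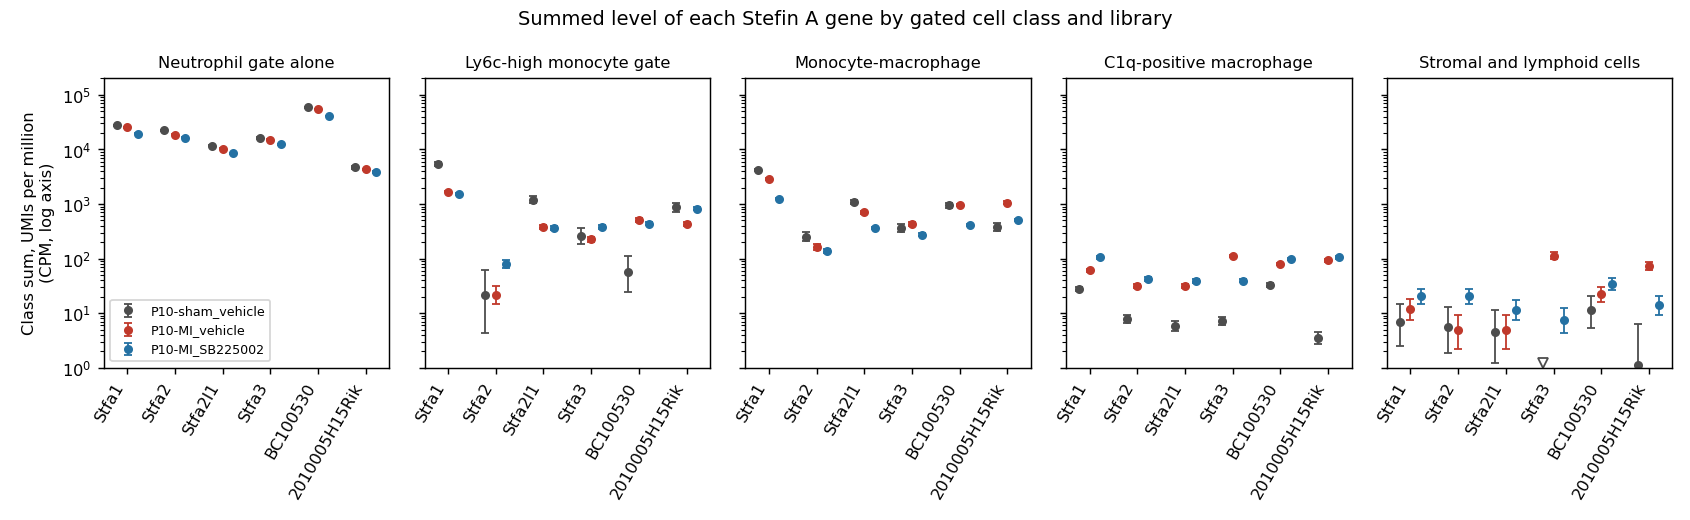
Summed level of each Stefin A gene in CPM of the class (log axis), by cell class (panels) and library (colours), with 95% Poisson intervals of the counts where they are wider than the point. Neutrophils sit between 3896 CPM (2010005H15Rik) and 59154 CPM (BC100530), and the C1q-positive macrophages between 3.58 CPM (2010005H15Rik) and 113 CPM (Stfa3).

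A UMI stands for a captured molecule, so the levels above compare the genes with each other without a correction for length. As an alternative, each level was also divided by the length of the gene's longest coding transcript. That length was 617 bases for Stfa1, 471 for Stfa2, 419 for Stfa2l1, 412 for Stfa3, 619 for BC100530 and 639 for 2010005H15Rik. The division raises the shares of the shorter transcripts, and whether UMI counts grew with length here was not tested. Per length, BC100530 made up 36.4%, 37.5% and 34.9% of the family in sham, vehicle and SB225002 neutrophils. Stfa1 with 17.0%, 17.3% and 16.6%, Stfa2 with 18.1%, 16.6% and 18.5%, and Stfa3 with 15.003%, 15.3% and 16.1% followed close together. The order among Stfa1 and Stfa2 changed from library to library per length, whereas by UMIs Stfa1 was above Stfa2 in each library. The change of order thus came from the division by length. Stfa2l1 made up 10.7%, 10.4% and 10.7%, and 2010005H15Rik 2.82%, 2.84% and 3.22%. The makeup of the family in neutrophils was thus nearly the same in the 3 libraries, whereas that of the monocytes, given below, was not.

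Cells past the neutrophil gate, with or without a further gate, held 92.5% of the family's UMIs in the sham library, 85.9% in the vehicle library and 79.9% in the SB225002 library, although they were 56 of 2351, 154 of 3453 and 258 of 4744 cells. The share differed by gene in the vehicle library. There it was 96.2% for Stfa2 and 95.1% for BC100530, 84.3% for Stfa2l1 and 79.1% for Stfa1, 75.9% for Stfa3 and 43.1% for 2010005H15Rik. 2010005H15Rik moved furthest between libraries, from 86.1% in sham to 43.1% in vehicle and 43.9% in SB225002. For Stfa3 the shares were 96.1%, 75.9% and 84.4%, so its UMIs outside the neutrophil gate were most frequent in the vehicle library.

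Neutrophils varied widely from cell to cell. The family's share of a cell's UMIs had a lowest value of 4.50%, a median of 15.3% and a highest value of 20.004% over the 20 sham cells. Over the 53 vehicle cells the same values were 0.285%, 12.3% and 27.2%, and over the 101 SB225002 cells 0.137%, 10.1% and 17.7%. The ranges overlapped from 4.50% to 17.7%, and the vehicle cells reached both below and above those of sham. In C1q-positive macrophages the median cell held 0 UMIs of the family in each library, while the highest cell held 5.10%, 6.24% and 7.26%. Cells with at least 1% of their UMIs in the family numbered 2, 20 and 43 among the C1q-positive macrophages (0.10035%, 0.885% and 1.55% of them). They numbered 2, 10 and 30 among the Ly6c-high monocytes (22.2%, 5.85% and 11.8%) and 7, 20 and 26 among the monocyte-macrophages (23.3%, 14.1% and 8.33%).

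**Figure D2:**
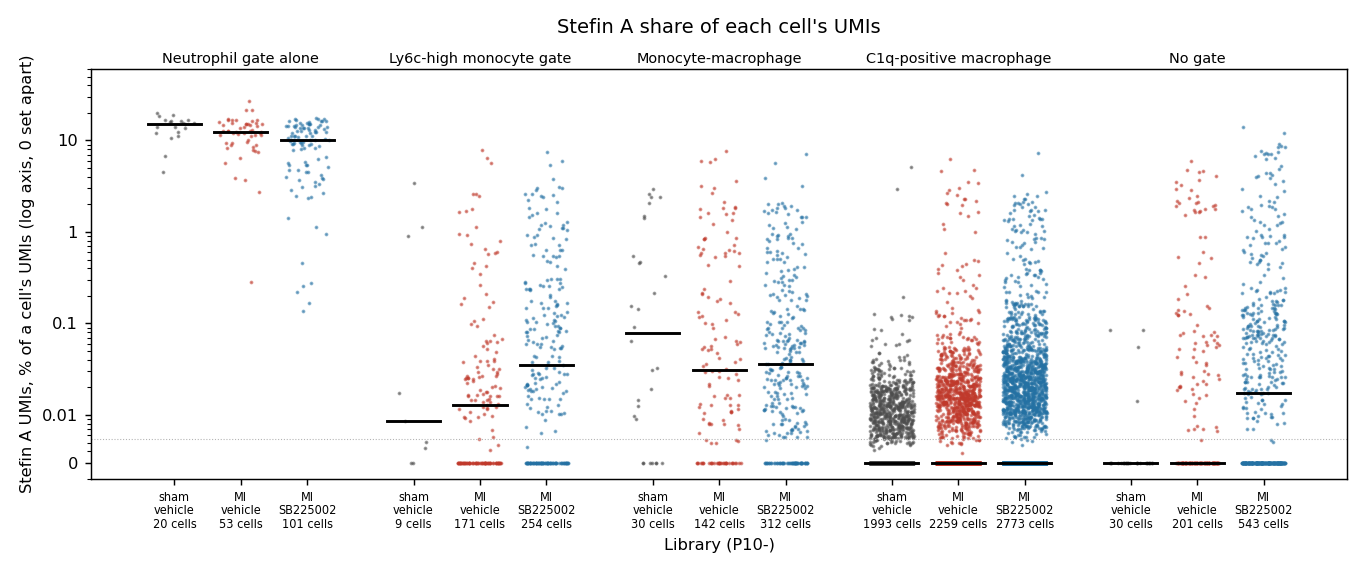
Stefin A UMIs as a percentage of each cell's UMIs (log axis, cells at 0 set apart), with 1 point for each cell, by cell class and library. Neutrophils have medians of 15.3%, 12.3% and 10.1% in sham, vehicle and SB225002, whereas most C1q-positive macrophages sit at 0 with a thin tail reaching 5.10%, 6.24% and 7.26%.

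Granule genes switch in order as neutrophils ripen, from azurophil through specific to gelatinase granules and late receptors. The azurophil list used was Mpo, Elane, Prtn3, Ctsg and Ms4a3. The specific list was Ltf, Camp, Ngp, Lcn2, Cd177 and Chil3. The late list was Mmp8, Mmp9, Retnlg, Cxcr2, Ly6g, Il1b, Csf3r and Mxd1, which are not all granule genes. Each cell past the neutrophil gate was set to the list that held most of its UMIs, and 0 cells fell to the azurophil list in any library. Of these cells 36, 92 and 131 had also passed the C1q gate in sham, vehicle and SB225002. The part of macrophage RNA in the split was not tested. Cells led by the specific granule list numbered 46, 117 and 105 in sham, vehicle and SB225002, with the family of 6 at 90735, 89706 and 58491 CPM. Cells led by the late list numbered 10, 37 and 153, with the family at 127643, 73426 and 57819 CPM. In specific granule cells Stfa3 stood at 9818, 11052 and 7754 CPM and BC100530 at 39120.1, 40185 and 24898 CPM, so that vehicle was above sham. In late cells 2010005H15Rik stood at 3885, 1950.2 and 3111 CPM, lowest in vehicle. The SB225002 library thus had the lowest level of the summed family at either stage, and its neutrophils were mostly of the late list whereas those of the other libraries were mostly of the specific list. The median UMI count of the cells past the gate was 7134.5 in SB225002 against 12146 in sham and 12378 in vehicle, and the part of depth and of these other gates in the level was not tested.

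Between the neutrophils of the libraries the differences were small on the log2 scale. Vehicle over sham, the family of 6 had a log2 ratio of −0.14 [−0.16 to −0.12], with members between −0.27 and −0.11. SB225002 over vehicle, the family ratio was −0.34 [−0.35 to −0.32], with members between −0.43 (BC100530) and −0.14 (2010005H15Rik). Over all cells past the neutrophil gate, with or without further gates, 2010005H15Rik had a ratio of 0.017 in SB225002 over vehicle. In cells past that gate alone all 6 members were lower in either comparison, and 0 of 6 were lower by at least 1 log2 unit. Of all genes whose UMIs in the compared libraries summed to 10 or more, 4.89% were lower by that much in vehicle over sham and 5.15% in SB225002 over vehicle.

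Monocytes carried the family with another makeup. The 9 sham Ly6c-high monocytes had the family of 6 at 7792 CPM, the 171 vehicle cells at 3260 CPM and the 254 SB225002 cells at 3607 CPM. Stfa1 led there with 5373, 1694 and 1507 CPM, while Stfa2 stood at 21.3, 21.9 and 80.3 CPM. BC100530, the leading gene of neutrophils, stood at 56.9, 505 and 439 CPM, and 2010005H15Rik at 868, 435 and 828 CPM. Per length, Stfa1 made up 63.4%, 47.8% and 38.0% of the family in these monocytes, against 17.0%, 17.3% and 16.6% in neutrophils. Stfa2 made up 0.330%, 0.810% and 2.65% per length, against 18.1%, 16.6% and 18.5% in neutrophils. The summed family of these monocytes was thus led by Stfa1 and held little Stfa2 in each of the 3 libraries. The Stfa1 sums came from few cells, since 3 of 9, 41 of 171 and 105 of 254 cells held any, the median cell held 0, and the highest held 553 of 755, 680 of 2398 and 425 of 2705 UMIs.

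The gate kept cells with 5 or more neutrophil markers out of these monocytes. The 9 markers summed to 448 CPM in sham (4 of 9 detected, with Retnlg, Ngp, Ltf, Camp and Mmp9 at 0), 397 CPM in vehicle (9 of 9) and 288 CPM in SB225002 (9 of 9), of which Mmp8 gave 406, 335 and 204 CPM. In vehicle monocytes 3.35 Stfa1 UMIs came with each BC100530 UMI, against 0.461 in vehicle neutrophils, and the part of free neutrophil RNA in the monocytes' level was not tested.

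**Figure D3:**
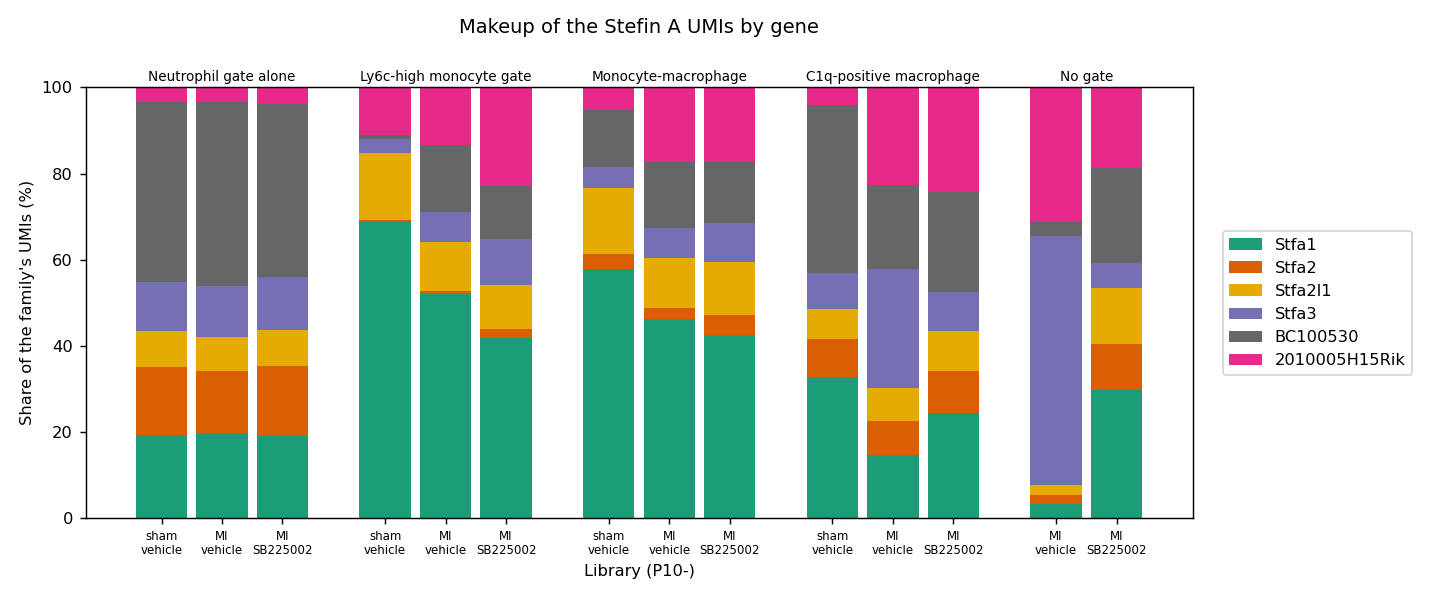
Share of the family's UMIs given by each of the 6 genes (stacked bars summing to 100%, not divided by length), by cell class and library, without the sham cells past no gate, which held 4 UMIs of the family. BC100530 gives 41.8%, 42.8% and 40.3% in neutrophils and Stfa1 gives 69.0%, 52.0% and 41.8% in Ly6c-high monocytes (sham, vehicle, SB225002).

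A few cells held much of the monocytes' UMIs. The 5 highest of 9 sham Ly6c-high monocytes held 99.8% of those of the family (1093 of 1095), the 5 highest of 171 in vehicle 63.0% (2906 of 4614) and the 5 highest of 254 in SB225002 34.1% (2210 of 6472). Ly6c-high monocytes with at least 3 dividing-cell markers had the family of 6 at 2262 CPM in vehicle (23 cells) and 504 CPM in SB225002 (52 cells). Those without had it at 3557 CPM (148 cells) and 4740 CPM (202 cells). In the sham library the 5 dividing cells stood at 3776 CPM and the 4 others at 14195 CPM. In these sums the dividing cells were lower in each library, but the highest monocyte alone held 1191 of the 4614 family UMIs of the vehicle class and 678 of the 1095 of the sham class, so that the sham and vehicle values rest on few cells.

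The monocyte-macrophages had the family of 6 at 7195 CPM in sham, 6176 CPM in vehicle and 2967 CPM in SB225002. Stfa1 led again with 4160, 2861 and 1261 CPM, and 2010005H15Rik stood at 378, 1067 and 516 CPM. Stfa2l1 was counted at 1097, 707 and 364 CPM, BC100530 at 944, 952 and 415 CPM, Stfa3 at 364, 430 and 273 CPM and Stfa2 at 251, 161 and 138 CPM. Their neutrophil markers summed to 312, 383 and 265 CPM, with Mmp8 at 233, 303 and 127 CPM and with Ly6g and Cd177 at 0 in sham. The family and Mmp8 were both lowest in SB225002, and the part of neutrophil RNA in that was not tested.

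SB225002 over vehicle, the monocyte-macrophages had a family ratio of −1.06 [−1.10 to −1.02] on the log2 scale. Stfa1 (−1.18), BC100530 (−1.20) and 2010005H15Rik (−1.05) were lower by at least 1 log2 unit, 3 of 6 members, where 4.76% of the 11287 genes tested were. Stfa2l1 (−0.96), Stfa3 (−0.66) and Stfa2 (−0.22 [−0.44 to 0.00]) were lower by less. These ratios rested in part on few cells. The 5 highest of 142 vehicle cells held 49.9% of the family's UMIs (5056 of 10137) and 76.1% of those of BC100530 (1189 of 1562). The 5 highest of 312 SB225002 cells held 23.8% and 41.4%. In the Ly6c-high monocytes the family ratio was 0.15 [0.09 to 0.20], and 0 of 6 members were lower by at least 1 log2 unit (6.18% of 10216 genes were). There Stfa2 (1.87 [1.31 to 2.48]) was higher by at least 1 log2 unit, 1 of 6 members against 4.48% of all genes. The Stfa2 ratio rested on 31 vehicle and 144 SB225002 UMIs, held by 18 of 171 and 49 of 254 cells. 2010005H15Rik (0.93) and Stfa3 (0.76) were higher by less. Stfa1 (−0.17 [−0.25 to −0.09]), BC100530 (−0.20 [−0.35 to −0.06]) and Stfa2l1 (−0.03 [−0.20 to 0.13]) had small negative ratios. As a difference of the mean over cells of log2(UMIs per 10000 + 1), the family stood at −0.20 in monocyte-macrophages, where the median cell's share was 0.0312% in vehicle and 0.0361% in SB225002 and 76.8% and 82.1% of cells held a UMI. In Ly6c-high monocytes the ratio was −0.14 with 1 more marker needed, so the direction of neither summed ratio held for every measure.

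**Figure D4:**
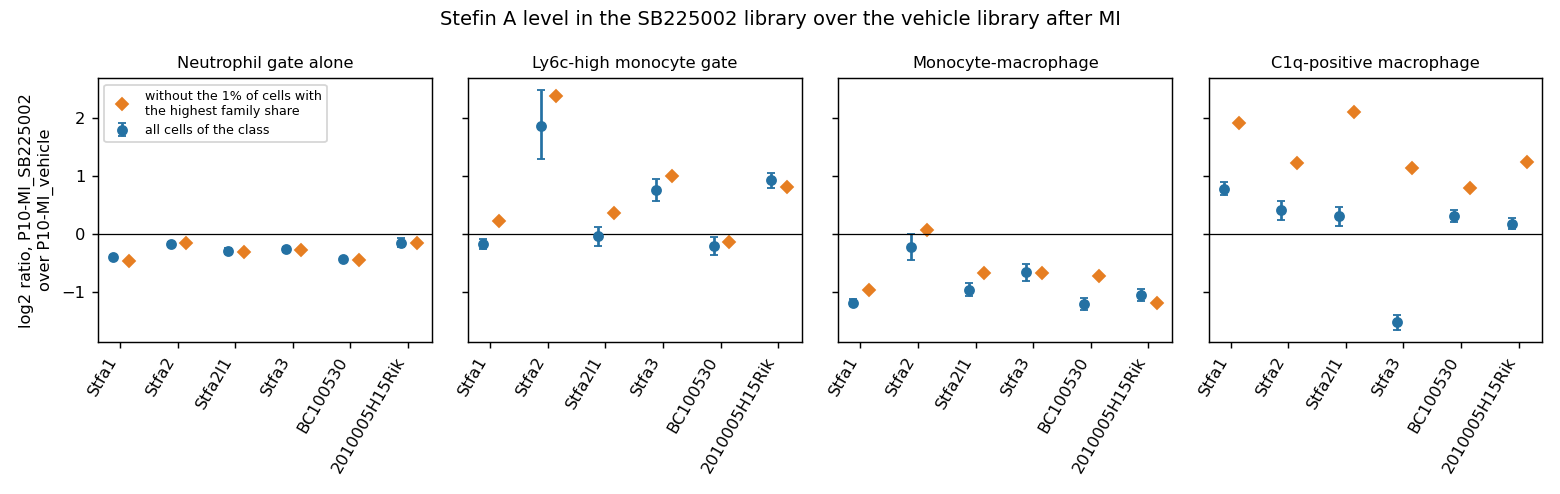
Log2 ratio of the level in P10-MI_SB225002 over P10-MI_vehicle for each Stefin A gene, by cell class (panels), with 95% counting intervals for all cells of the class (circles) and without the 1% of cells highest in the family (diamonds). Over all C1q-positive macrophages Stfa3 sits at −1.52, below the other 5 genes (0.18 to 0.79), and its diamond at 1.15.

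C1q-positive macrophages, the class with the most cells, held the family at a low summed level. It was 86.1 CPM [81.9 to 90.4] in 1993 sham cells, 410 CPM [400 to 420] in 2259 vehicle cells and 430 CPM [421 to 440] in 2773 SB225002 cells. Stfa1 stood at 28.2, 60.8 and 105 CPM, BC100530 at 33.4, 79.8 and 99.3 CPM and Stfa3 at 7.32, 113 and 39.5 CPM. 2010005H15Rik stood at 3.58, 92.5 and 105 CPM, Stfa2 at 7.76, 32.0 and 42.7 CPM and Stfa2l1 at 5.86, 31.5 and 39.1 CPM. In these sums each gene was lowest in the sham library, and the order of vehicle and SB225002 changed with the processing for Stfa3, 2010005H15Rik and Stfa2, as given below.

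Vehicle over sham, the family ratio in C1q-positive macrophages was 2.25 [2.17 to 2.33] on the log2 scale, and 6 of 6 members were higher by at least 1 log2 unit, where 5.47% of the 15549 genes tested were. The smallest ratio was that of Stfa1 (1.11 [0.96 to 1.27]) and the largest that of 2010005H15Rik (4.69 [4.33 to 5.07]), with Stfa3 at 3.95 [3.70 to 4.22] and a median of 2.24. The member ratios rested in part on few cells. The 5 highest macrophages held 62.4% of the Stfa1 UMIs in sham and 62.6% in vehicle, and 51.6% and 39.2% of those of BC100530. The neutrophil markers of these macrophages moved alongside, from 12.2 CPM in sham (8 of 9 detected, Ly6g at 0) to 48.4 CPM in vehicle and 72.8 CPM in SB225002 (9 of 9 each), led by Ngp (3.69 CPM), Mmp9 (18.5 CPM) and Retnlg (36.2 CPM). Cells of the fibroblast, endothelial, mural, B and T or NK gates, taken here as a background, held the family at 29.5, 233 and 109 CPM in the same libraries. In vehicle Stfa3 stood at 276 CPM per kb of transcript in them and at 275 CPM per kb in the macrophages. Of their 208 Stfa3 UMIs in vehicle at least 84 lay in 1 fibroblast, and whether their level is free RNA was not tested. When the level of those cells was subtracted, the family ratio of the macrophages was 1.65, and without the top 1% of macrophages in each library it was 1.40. The 5 highest macrophages alone held 50.8% of the family's UMIs in sham (806 of 1587) and 47.1% in vehicle (3115 of 6620). As a difference of the mean over cells of log2(UMIs per 10000 + 1) the family ratio was 0.26, under 1 log2 unit.

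SB225002 over vehicle, the family of 6 had a ratio of 0.07 [0.02 to 0.12] in C1q-positive macrophages, and of 1.31 without the top 1% of cells in each library. Stfa1 was higher (0.79 [0.68 to 0.90]), 4 members had ratios of 0.18 to 0.42, and Stfa3 was lower (−1.52 [−1.65 to −1.40]). With the mitochondrial limit set to 5%, the family ratio was −0.36 and that of 2010005H15Rik −0.22, and with every barcode kept they were −0.0037 and −0.15. Stfa2 had a ratio of −0.28 once the level of stromal and lymphoid cells was subtracted. With cells past both the neutrophil and the C1q gates kept in 1 class, the family was lower in SB225002 than in vehicle. Thus 1 of 6 members was lower by at least 1 log2 unit, where 5.15% of the 15470 genes tested were, and 0 of 6 were higher by that much (2.99% of genes). The Stfa3 ratio rested on very few cells. In the vehicle library 5 of 2259 macrophages held 83.5% of its UMIs (1528 of 1830), and the top cell held 696. In the SB225002 library the top 5 of 2773 held 22.1% (156 of 705), and more cells held a UMI of it, 9.66% against 7.30%. Without the top 1% of cells in each library the ratio of Stfa3 was 1.15, so its direction was set by those cells.

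More macrophages held a UMI of the family after MI. The share of C1q-positive macrophages with at least 1 was 32.3%, 37.3% and 45.8%, and that of the stromal and lymphoid cells was 15.6%, 26.0% and 37.0% at medians of 6015, 4569.5 and 4251 UMIs (against 8663, 6281 and 5684). BC100530 was detected in 14.4%, 17.5% and 18.8% of macrophages against 7.41%, 12.8% and 16.9% of stromal and lymphoid cells, and its level was 33.4, 79.8 and 99.3 CPM against 11.4, 22.4 and 34.6 CPM. 2010005H15Rik was detected in 1.81%, 6.77% and 16.5% of macrophages against 0.741%, 1.64% and 4.24%, and its level was 3.58, 92.5 and 105 CPM against 1.14, 74.5 and 14.2 CPM. Shares and levels thus set these genes against the background differently, with BC100530 nearer to it by share and 2010005H15Rik nearer to it by level in vehicle. Stfa3 was nearer still by level in vehicle, at 275 CPM per kb of transcript against 276 CPM per kb. It was detected there in 7.30% of macrophages against 4.93% of stromal and lymphoid cells. With each cell thinned to 1000 UMIs, the family was seen in 4.56%, 9.62% and 14.7% of macrophages, and 21, 35 and 54 shallower cells were left out. The order of the libraries was thus the same at equal depth. Stromal and lymphoid cells thinned in the same way gave 0.746%, 5.14% and 10.3%. The sham value is 1 of 134 cells, and BC100530 alone, thinned separately, was seen in 2.99% of them. The sham background at this depth is thus uncertain.

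The C1q-positive macrophages were split by lipid-associated markers (Spp1, Gpnmb, Trem2 and Fabp5) and resident markers (Lyve1, Folr2, Cbr2, Cd163 and Timd4). Those with at least 3 lipid-associated and under 3 resident markers held the family of 6 at 37.4, 536 and 548 CPM in sham, vehicle and SB225002. Those with at least 3 resident and under 3 lipid-associated markers held it at 133, 213 and 264 CPM. Those with at least 3 MHC class II markers, whatever the other lists, held it at 58.2, 930 and 1300 CPM (21, 60 and 76 cells). These levels rested on few cells. A sham resident cell held 497 of the 1156 family UMIs of its 860 cells, and the 5 highest of 312 lipid-associated cells in vehicle held 77.1% (1382 of 1792).

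Stfa3 and 2010005H15Rik stood apart from the other members in the cells that passed no gate, which numbered 30 in sham, 201 in vehicle and 543 in SB225002. Their median cell was shallow, with 1170, 2740 and 2226 UMIs. Stfa3 stood at 0 UMIs in the sham cells, at 3525 CPM in vehicle and at 174 CPM in SB225002, a log2 ratio of −4.34 [−4.51 to −4.19] for SB225002 over vehicle. 2010005H15Rik stood at 0 UMIs in sham and at 1910.3 and 563 CPM in vehicle and SB225002 (−1.76 [−1.87 to −1.66]), and the copy Gm5483 at 1849.9 and 765 CPM in the infarcted libraries. Stfa1 went the other way, with 208 CPM in vehicle and 893 CPM in SB225002 (2.10 [1.89 to 2.32]), and so did BC100530 with 199.6 and 659 CPM (1.72 [1.51 to 1.95]).

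By UMIs the family of these ungated cells was 57.7% Stfa3 and 31.3% 2010005H15Rik in vehicle, against 5.78% and 18.7% in SB225002. They held 12.3% of all Stfa3 UMIs and 17.3% of all 2010005H15Rik UMIs of the vehicle library, and 1.84% and 9.52% of those of the SB225002 library. The 9 neutrophil markers summed to 41.6 CPM there in sham (2 of 9 detected), 115 CPM in vehicle (8 of 9 detected, Cd177 at 0) and 455 CPM in SB225002 (9 of 9), with Retnlg at 29.7 and 187 CPM the most abundant in the infarcted libraries. The part of neutrophil RNA in the level of Stfa3 there was not tested. The cells were left without a cell type name because they passed no gate.

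**Figure D5:**
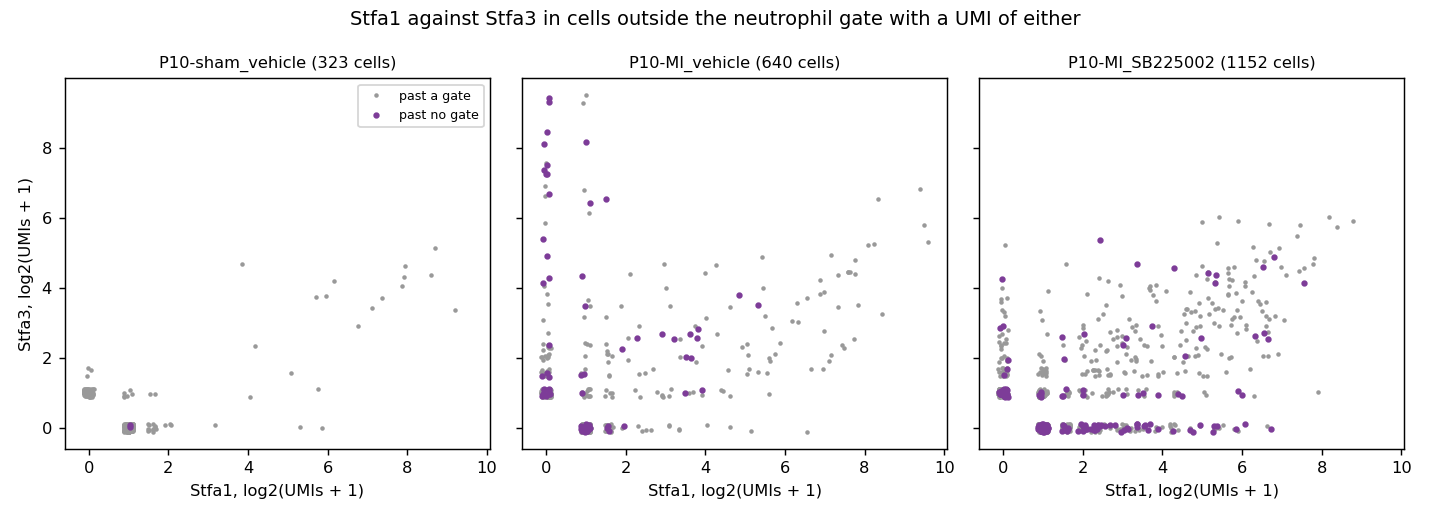
Stfa1 (x axis) against Stfa3 (y axis), both as log2(UMIs + 1), for cells outside the neutrophil gate with a UMI of either, in 1 panel for each library, coloured by whether the cell passed any gate and spread slightly at random so that points do not hide each other. In the vehicle library a group of mostly ungated cells lies high on the Stfa3 axis at Stfa1 near 0, and the SB225002 panel has no cell above 69 Stfa3 UMIs.

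A small number of cells held most of the Stfa3 of the vehicle library outside the neutrophil gate. The 20 cells with the most Stfa3 there held 77.6% of its UMIs in vehicle and 29.2% in SB225002, and 7 and 51 cells held 50% of them. The highest cell had 720 UMIs of Stfa3 in vehicle and 69 in SB225002. Of the 20 vehicle cells, 12 passed no gate, 3 were C1q-positive macrophages, 3 monocyte-macrophages, 1 a fibroblast and 1 passed several gates. Saa3, an acute-phase serum amyloid gene, was detected in 18 of the vehicle cells, S100a8 in 19, Cxcl3 in 12 and C1qa in 10. Ly6c2, a marker of inflammatory monocytes, was detected in 3 of them. Their medians were 161.5 UMIs of Stfa3, 0 of Stfa1 and 32 of S100a8. Of the 20 SB225002 cells, 7 were Ly6c-high monocytes, 6 monocyte-macrophages, 2 C1q-positive macrophages and 2 past no gate, and 3 passed several gates. In these SB225002 cells Saa3 was detected in 5, S100a8 in 20, Cxcl3 in 0, C1qa in 15 and Ly6c2 in 15. Their medians were 39 UMIs of Stfa3, 96.5 of Stfa1 and 348 of S100a8. Cells past no gate were thus the most frequent among the 20 in vehicle and Ly6c-high monocytes in SB225002, while most classes occurred in both.

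Cells were also counted by which of Stfa1 and Stfa3 was higher in them, a choice that fixes the direction within each group. Outside the neutrophil gate, 1 sham, 38 vehicle and 24 SB225002 cells held at least 10 UMIs of Stfa3 and more of it than of Stfa1. The 38 vehicle cells held 5484 UMIs of Stfa3 and 71 of Stfa1, and the 24 SB225002 cells 559 and 247. Cells with at least 10 UMIs of Stfa1 and more of it than of Stfa3 numbered 18, 75 and 181, and the 75 vehicle cells held 8058 UMIs of Stfa1 and 857 of Stfa3, and the 181 SB225002 cells 10074 and 1659. Cells with at least 10 UMIs of 2010005H15Rik and more of it than of Stfa1 numbered 0, 66 and 116.

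The proteases that stefins inhibit were counted in the same classes. Of the 10 papain-like cysteine cathepsins listed, 9 had at least 10 UMIs in C1q-positive macrophages. Ctsb, cathepsin B, stood at 2077, 2587 and 2980 CPM in sham, vehicle and SB225002, Ctss, the cathepsin of antigen processing, at 894, 1168 and 1702 CPM, and Ctsl, cathepsin L, at 297, 512 and 873 CPM. In macrophages 1 of 9 cathepsins (Ctsk, 1.48, at 1.25 CPM in sham and 3.47 CPM in vehicle, named after its values were seen) was higher by at least 1 log2 unit in vehicle over sham (median 0.32, with 5.47% of all genes past that fold), and 0 of 9 in SB225002 over vehicle (median 0.36, with 2.99% of all genes). In neutrophils Ctsb stood at 126, 134 and 280 CPM, Ctss at 21.0, 31.0 and 107 CPM and Ctsl at 63.1, 52.1 and 144 CPM. There 5 of 6 cathepsins tested were higher by at least 1 log2 unit in SB225002 over vehicle (median 1.38), where 10.2% of all genes were, while all 6 stefins were lower.

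The C1q markers of these neutrophils were also higher in SB225002, at 187 CPM against 130 CPM in vehicle. The gates hold these markers down, so they do not measure how much macrophage RNA the class held. The part of macrophage RNA in the cathepsin levels was not tested. Legumain (Lgmn), a related lysosomal protease that other cystatins inhibit, stood at 21.0, 35.8 and 73.9 CPM in neutrophils and at 1293, 1329 and 1595 CPM in C1q-positive macrophages. Cstb (stefin B), the stefin found in most cells, stood at 486, 603 and 748 CPM in C1q-positive macrophages and at 58.9, 94.5 and 171 CPM in neutrophils. Cst3, the secreted cystatin C, stood at 2174, 2267 and 2295 CPM in macrophages and at 290, 311 and 412 CPM in neutrophils. Both classes held all of these inhibitors, with Cst3 and Cstb higher in macrophages and the stefin A genes higher in neutrophils in each library. Of the 4 other cystatins tested in macrophages, 2 were higher by at least 1 log2 unit in SB225002 over vehicle (Cst7, which encodes cystatin F, with 17 and 38 UMIs, and Cst6, which encodes cystatin E/M, with 4 and 9 UMIs, both named after their values were seen), against 2.99% of all genes.

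S100a8 and S100a9, the subunits of the alarmin calprotectin, ran close to the family across classes. S100a8 stood at 127636, 135701 and 97884 CPM in neutrophils and S100a9 at 166306, 147562 and 152521 CPM. In Ly6c-high monocytes S100a8 stood at 25249, 11896 and 9916 CPM, and in C1q-positive macrophages at 87.4, 293 and 435 CPM. Cebpe, a transcription factor needed for late granulocyte ripening, stood at 84.1, 119 and 104 CPM in neutrophils, 28.5, 14.1 and 21.7 CPM in Ly6c-high monocytes and 0.271, 1.61 and 3.25 CPM in C1q-positive macrophages. Cebpb was counted in every class, at 585, 574 and 838 CPM in neutrophils and 235, 291 and 379 CPM in C1q-positive macrophages.

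The genes most like the family were found from the correlation of log2(CPM + 10) over 27 profiles of class and library, among 4874 genes. They were Gm5483 (r = 0.98), S100a9 (0.98), S100a8 (0.98), Lcn2 (0.97), Slpi (0.97), Slfn4 (0.95), Cxcr2 (0.95), Wfdc21 (0.94), Cebpe (0.94) and Mmp8 (0.94). Gm5483 is a stefin copy, Cebpe a transcription factor, and Cxcr2 and Mmp8 are markers of the neutrophil gate, which in part sets their place here. Over the 21 profiles without neutrophil-gated cells and 4776 genes, Stfa1 was most like S100a9 (0.98), S100a8 (0.98), Stfa2l1 (0.98), BC100530 (0.95) and Gm5483 (0.95). Stfa3 was most like 2010005H15Rik (0.96), Slpi (0.88), AA467197 (0.85) and Gm5483 (0.84), and Stfa1 was not among its 10 nearest genes. These profiles share libraries, depth and, in part, cells, so each correlation is a description and has no p-value.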

How the data were processed

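For each library the authors deposited a matrix of whole UMI counts, genes by barcodes, with no normalization. Per the labels, mm10 and Seurat 4.1.0 were used, and the aligner and annotation are not given in the sources used here. The members, gene lists and gates were chosen with earlier results of these data known. Named genes were the members and their copies, listed pathway genes of at least 100 CPM in a class, and the 10 genes most like the family. Gate markers were named as well. Saa3, Cxcl3, Ly6c2, S100a8 and C1qa were looked up in the cells highest in Stfa3, and Saa3 and Cxcl3 come from none of these lists. Cells with over 500 and under 30000 UMIs, over 500 and under 5000 genes and under 10% mitochondrial UMIs were kept, with the study's own limits. No doublet caller was run, and cells past the gates of 2 classes were left out, except monocyte-macrophages. UMIs were summed by class and library and scaled to CPM. Levels carry exact Poisson intervals, ratios exact conditional binomial intervals and shares exact Clopper-Pearson intervals (scipy 1.17.1, Python 3.11.15), all for counting error only. With 1 library per condition no test was made. Scaling factors of edgeR 4.0.16 (TMM) and DESeq2 1.42.0 were alternatives. The ratio step was tested on simulated data. Of the file's 54752 symbols, 54106 are in GENCODE vM21. A further split of the cells by a marker gene is not reported here.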

Additional observations from a re-analysis of the deposited data

Results flagged for a closer look

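Several members had log2 ratios of opposite sign in different classes of the same libraries, and the difference between the classes was not tested, since 1 library stands for each condition. Vehicle over sham, Stfa1 was 1.11 in C1q-positive macrophages and −0.54 in monocyte-macrophages, Stfa2 was 2.05 and −0.64, and Stfa2l1 was 2.43 and −0.63. The 5 highest of the 30 sham monocyte-macrophages held 76.5% of their Stfa1, 93.5% of their Stfa2 and 81.6% of their Stfa2l1 UMIs, so these values rest on few cells. SB225002 over vehicle, Stfa1 was 0.79 in C1q-positive macrophages and −1.18 in monocyte-macrophages. In the same comparison Stfa3 was 0.76 in Ly6c-high monocytes, −0.66 in monocyte-macrophages and −1.52 in C1q-positive macrophages. The last value turned to 1.15 without the top 1% of cells and to 0.067 as the mean over cells, and 5 of 2259 cells held 83.5% of the vehicle UMIs behind it. 2010005H15Rik was 0.93 in Ly6c-high monocytes and −1.05 in monocyte-macrophages.

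The barcodes above 30000 UMIs or 5000 genes, which enter only the values given without a cell filter, held 44.5% of the family's UMIs in the sham library, 25.8% in the vehicle library and 1.52% in the SB225002 library.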

How the results depend on the processing

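No paired analysis was possible because each condition is 1 library, with no replicate to leave out. The limits lie in few cells: 20 sham neutrophils and 9 sham Ly6c-high monocytes, and C1q-positive macrophages whose level a few cells set. The alternatives with all cells past the neutrophil gate and with thinned neutrophils were chosen after seeing the data. Of the alternative values of the family ratios, 13 moved by less than their interval, 36 by more and 3 changed sign, and of the member ratios 120, 118 and 12 did so. The change of direction with cells past both gates kept in 1 class, given below, is not among the 3. The cause of these shifts was not tested. The level of stromal and lymphoid cells was subtracted as a stand-in for free RNA, but in vehicle 208 and 136 of their 425 family UMIs were of Stfa3 and 2010005H15Rik, another makeup than that of neutrophils.

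For the family ratio SB225002 over vehicle in C1q-positive macrophages (0.07), TMM and DESeq2 factors gave 0.13 each, the mean over cells of log2(UMIs per 10000 + 1) 0.34, a mitochondrial limit of 5% −0.36, no cell filter −0.0037, 1 more marker 0.89, leaving out the top 1% of cells 1.31 and subtracting the level of stromal and lymphoid cells 0.86. In Ly6c-high monocytes (0.15) the mean over cells gave 0.97, the 5% limit 0.34, no filter 0.22, 1 more marker −0.14, leaving out the top 1% 0.45 and subtracting that level 0.21. In monocyte-macrophages (−1.06) the mean over cells gave −0.20, the 5% limit −1.10, 1 more marker −1.39 and leaving out the top 1% −0.88. In neutrophils (−0.34) TMM gave −0.50, DESeq2 factors −0.51, the mean over cells −0.67, the 5% limit −0.31, no filter −0.37, 1 more marker −0.38, leaving out the top 1% −0.36, all cells past the gate −0.58 and thinning −0.39.

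For vehicle over sham, the family ratio in C1q-positive macrophages (2.25) was 0.26 as the mean over cells, 2.50 without a filter, 2.17 with 1 more marker, 1.40 without the top 1% and 1.65 with that level subtracted. In neutrophils (−0.14) it was −0.18 with TMM, −0.20 with DESeq2 factors, −0.33 as the mean over cells, −0.10 at the 5% limit, −0.023 without a filter, −0.17 with 1 more marker and −0.22 after thinning.

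Members changed sign in SB225002 over vehicle. In C1q-positive macrophages Stfa3 was 0.067 as the mean over cells and 1.15 without the top 1%. Stfa2 was −0.28 with that level subtracted, and 2010005H15Rik −0.22 at the 5% limit and −0.15 without a filter. In Ly6c-high monocytes Stfa1 was 0.65 as the mean over cells, 0.032 at the 5% limit and 0.23 without the top 1%, and BC100530 was 0.15 as the mean over cells, 0.19 at the 5% limit and 0.27 without a filter. In neutrophils 2010005H15Rik was 0.017 over all cells past the gate.

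With 1 more marker the neutrophil gate held 92.2%, 83.3% and 74.1% of the family's UMIs in sham, vehicle and SB225002, and at the 5% limit 86.8% in vehicle and 80.3% in SB225002. With cells past both gates kept in 1 class, the family stood at 117026, 102039 and 77920 CPM in neutrophils and at 1170, 2993 and 1828 CPM in C1q-positive macrophages. In these macrophages vehicle was then above SB225002, whereas without those cells it was below (410 against 430 CPM). Thinned to 1000 UMIs, 4.56%, 9.62% and 14.7% of C1q-positive macrophages and 33.3%, 26.3% and 45.6% of Ly6c-high monocytes held a UMI of the family. The count of all genes past 1 log2 unit moved with the UMI minimum. With no minimum and with at least 100 UMIs it was 3987 and 192 (C1q-positive macrophages, vehicle over sham, higher), 3977 and 138 (the same class, SB225002 over vehicle, lower), 3022 and 68 (monocyte-macrophages, lower), 2969 and 96 (Ly6c-high monocytes, lower) and 2075 and 9 (neutrophils, lower).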
